A study of Mus musculus with 6 samples.

Results

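The genes described here are 7 genes of sterol synthesis and its control: Srebf2, Insig1, Hmgcs1, Fdps, Fdft1, Sqle and Cyp51. They were chosen by name, as the rows of the deposited table whose symbol equals a listed symbol. Of the 7, 6 have a row among the 37447 genes of the table; Hmgcs1 was matched to no row by symbol or by gene identifier, and its level was not analysed here. The RNA came from flow-sorted microglia, macrophages that reside in the central nervous system, of the optic nerves of C57BL/6 mice at 3 months of age. The Nf1 genotype flox/mut (1 floxed allele, 1 mutant allele) was common to all mice. Loss of Nf1 underlies neurofibromatosis type 1. The control group, FM, had these alleles alone (2 libraries, FM 1 from males and FM 2 from females by their labels). The group FMC had the same alleles and GFAP-Cre, a Cre recombinase under the promoter of an astroglial intermediate filament gene (4 libraries, FMC 1 and FMC 4 female, FMC 2 and FMC 3 male). That promoter is active in astroglial cells and their precursors rather than in the microglia that were sequenced. Mice of the FMC genotype are a known model of optic glioma, and the series concerns microglia associated with such tumours. The labels call the libraries biological replicates and do not say whether a library pools animals.

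Cholesterol is made from acetyl-CoA through mevalonate, farnesyl pyrophosphate, squalene and lanosterol. Srebf2 encodes SREBP-2, a transcription factor that is held in the endoplasmic reticulum membrane by Scap and the Insig proteins while sterols are plentiful. When membrane sterol falls, the complex moves to the Golgi apparatus, where the proteases encoded by Mbtps1 and Mbtps2 release the active fragment, and the enzymes of the pathway are induced. In the nervous system much of the cholesterol is made by glia, above all by oligodendrocytes for myelin, and microglia take up and recycle sterol from myelin debris. The level of Srebf2 RNA is not the amount of active SREBP-2, which depends on cleavage.

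Promoters are shown because the listed genes are known targets of SREBP-2, which binds sterol regulatory elements together with NF-Y at CCAAT boxes and Sp1 at GC boxes. RefSeq windows reaching from 250 bases before to 50 bases after the annotated start (build GRCm38.p6) were found for 4 of the 7 genes: Srebf2 (chr15:82147019-82147318, plus strand), Hmgcs1 (chr13:119690101-119690400, plus strand), Insig1 (chr5:28071162-28071461, plus strand) and Cyp51 (chr5:4104648-4104947, minus strand). They are written 5′ to 3′ on the strand of the gene, and capitals mark every match, on either strand, to CACNCCAC, TCACCNCA or CCAAT, the last of which reads ATTGG where it lies on the opposite strand.
Srebf2: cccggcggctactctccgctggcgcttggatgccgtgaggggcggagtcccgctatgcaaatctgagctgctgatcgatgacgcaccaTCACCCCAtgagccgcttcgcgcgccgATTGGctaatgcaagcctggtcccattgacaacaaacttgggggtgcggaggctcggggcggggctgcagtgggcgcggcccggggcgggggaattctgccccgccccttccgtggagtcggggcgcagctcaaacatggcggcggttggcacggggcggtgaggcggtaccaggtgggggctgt
Hmgcs1: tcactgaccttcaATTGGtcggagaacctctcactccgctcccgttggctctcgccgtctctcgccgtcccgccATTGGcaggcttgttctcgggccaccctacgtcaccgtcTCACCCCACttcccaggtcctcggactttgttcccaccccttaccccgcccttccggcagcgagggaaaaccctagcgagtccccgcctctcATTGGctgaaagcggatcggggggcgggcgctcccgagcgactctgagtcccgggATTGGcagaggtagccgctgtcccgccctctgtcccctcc
Insig1: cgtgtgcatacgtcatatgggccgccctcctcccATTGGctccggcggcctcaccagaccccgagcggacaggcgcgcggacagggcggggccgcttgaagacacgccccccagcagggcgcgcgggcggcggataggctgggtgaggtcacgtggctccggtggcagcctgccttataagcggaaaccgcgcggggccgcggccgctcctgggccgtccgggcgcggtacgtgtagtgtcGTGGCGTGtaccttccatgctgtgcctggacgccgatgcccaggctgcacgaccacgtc
Cyp51: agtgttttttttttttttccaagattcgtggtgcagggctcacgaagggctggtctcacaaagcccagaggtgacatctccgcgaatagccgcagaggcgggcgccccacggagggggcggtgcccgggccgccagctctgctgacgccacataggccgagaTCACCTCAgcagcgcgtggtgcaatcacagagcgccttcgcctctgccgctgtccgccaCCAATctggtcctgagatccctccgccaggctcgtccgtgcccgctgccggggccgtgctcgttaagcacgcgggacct

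The sterol regulatory element letters TCACNCCAC were found in Hmgcs1 alone of the 4, first base at position -137 from the start, and in 1.24% of 32851 RefSeq windows of 300 bases. The shorter CACNCCAC, which lies within it, was found in Hmgcs1 and, on the opposite strand, in Insig1, against 6.24% of all windows. TCACCNCA, chosen after these sequences were read and overlapping the former, was found in Srebf2 (TCACCCCA), Hmgcs1 (TCACCCCA) and Cyp51 (TCACCTCA), against 4.42% of all windows. CCAAT on either strand was in 4 of 4 windows of these genes and in 37.4% of all windows. The GC box GGGCGG was also in 4 of 4 and in 35.7% of all. Of 16 other enzymes of the pathway 14 had a window; 13 of the 14 held CCAAT, 13 held GGGCGG and 1, Acat2, held CACNCCAC. TCACCNCA was in 1 of the 14 (Hsd17b7), or 5.88% of their 17 windows, near its share of all windows, and TCACNCCAC in 0. These are matches of letters and not sites shown to be bound.

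The deposited values are FPKM, in which fragments are divided by transcript length and library total, so levels can be compared between genes. The number of reads behind a value is unknown. Library sums of FPKM ran from 420285 to 674799, and 13390 to 15562 genes reached 1 FPKM. Depth relative to FMC 2, read from the steps of low values, was between 1.19 and 2.13 in FM 1, FMC 1, FMC 3 and FMC 4; for FM 2 the steps gave 1.66 to 3.39. Microglial markers were high in all libraries, with 8 markers summing to 2591 and 4833 FPKM in FM, against 2693 to 4065 FPKM in FMC. The sum of 8 markers of oligodendrocytes, which are rich in sterol enzymes, was 16.8 and 34.2 FPKM in FM, against 24.9 to 45.95 FPKM in FMC, and the myelin gene Mog stayed under 1 FPKM in every library; the part of such cells in the sterol values was not tested. The sum of 6 astrocyte markers was 122 and 144 FPKM in FM, against 111 to 121 FPKM in FMC, nearly all of it Slc1a3 (104 to 130.1 FPKM), with Gfap under 1 FPKM in all but FM 2 (3.06 FPKM). The sum of 5 markers of border-associated macrophages and monocytes was 177 and 162.5 FPKM in FM, above all FMC libraries (115 to 152 FPKM). That is the order of groups seen in Srebf2 and Sqle, as it is, narrowly, for the astrocyte sum, and the part of these cells in the sterol values was not tested. Within that list Mrc1 had 126 and 113 FPKM in FM, against 60.5 to 87.9 FPKM in FMC. The other genes of the list, Cd163, Lyve1, Ccr2 and Ly6c2, did not have all FMC libraries below both FM libraries. The sum of 4 B cell markers was highest in FM 2 (105.4 FPKM) and FMC 1 (90.75 FPKM) and 9.79 to 36.6 FPKM in the other 4 libraries. Across all 18208 genes tested with limma on log2(FPKM + 1), at a threshold of 0.05 on the adjusted p, 5 genes were called lower in FMC and 0 higher (0 to 4 each way when any 1 library was omitted).

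Srebf2 was the most abundant of the 6 genes in 5 of the 6 libraries, with a mean over libraries of 18.6 FPKM. Insig1 followed at 11.8 FPKM, then Fdft1 at 8.16, Fdps at 7.56, Sqle at 6.65 and Cyp51 at 6.35 FPKM. The ranges of all neighbours in this order overlapped. Insig1 was above Fdft1 in 6 of 6 libraries and Srebf2 above Insig1 in 5, whereas the last 4 genes changed places, each being above the next in 3 of 6 libraries. The mean of Srebf2 was higher than that of 75.9% of the genes tested, and that of Cyp51 higher than that of 51.4%. FMC 1 was the library where Srebf2 was not first: there Srebf2 was the fourth of the 6, and Insig1 and Fdft1 came first. Below Srebf2 the order differed in other libraries too, with Sqle second in FM 2 and Cyp51 second in FMC 2 and FMC 4.

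None of the 6 genes passed the test for genotype. In bulk RNA a smaller share of cells that make a transcript and less of it per cell cannot be told apart. Of the 6, 5 had a lower fitted level in FMC than in FM, but 0 passed in either direction by limma, where 0.0275% of all genes were called, and 0 had an unadjusted p under 0.05, against 5.34% of all genes (1.14% higher and 4.20% lower). In Srebf2 and Sqle all FMC libraries lay below both FM libraries, which was so for 8.22% of all genes, and none of the 6 had all FMC libraries above both FM libraries (4.34% of all genes). The median log2 difference of the 6 was -0.90, beside a median of -0.12 over all genes tested and with 56.5% of all genes lower. Without FM 2 the median of the 6 was -0.58 and that of all genes 0.03. Scaling shifted all genes: the median of all became -0.03 with median ratio scaling and 0.04 with quantile normalization, and that of the 6 genes became -0.81 and -0.76.

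Srebf2 (ENSMUSG00000022463), on chromosome 15 from 81977696 to 82035806 in mm9, measured 19.8 FPKM in FM 1, 37.1 FPKM in FM 2 and, from FMC 1 to FMC 4, 6.17, 19.3, 16.1 and 13.2 FPKM. FM 2 was highest and FMC 1 lowest, and the groups only just failed to touch, with FMC 2 beside FM 1. FM averaged 28.4 ± 12.2 FPKM (SD, n = 2), while FMC averaged 13.7 ± 5.6 FPKM (SD, n = 4). The log2 difference of FMC minus FM was -1.04 ± 0.61 (SE, limma adjusted p = 0.993), and an exact two-sided permutation test over the 15 splits into 4 and 2 gave p = 0.133. With median ratio scaling or quantile normalization the groups overlapped. Without FM 2 the difference was -0.60, so 1 library carried a large share of it.

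Insig1 (ENSMUSG00000045294, chromosome 5 from 28397952 to 28405201), whose product retains Scap and SREBP-2 in the endoplasmic reticulum and is itself an SREBP target, measured 13.5 FPKM in FM 1, 10.5 FPKM in FM 2 and, from FMC 1 to FMC 4, 23.9, 4.58, 8.67 and 9.66 FPKM. The highest and the lowest library were both FMC, so the groups overlapped fully. The FM mean was 12.02 ± 2.1 FPKM (SD, n = 2), and that of FMC was 11.7 ± 8.4 FPKM (SD, n = 4). FMC minus FM came to -0.24 ± 0.70 on the log2 scale (SE, limma adjusted p = 0.999). It was -0.64 without FMC 1 and 0.08 without FMC 2. Insig2, the second retaining protein, was at 17.4 and 11.3 FPKM in FM beside 12.7, 8.59, 36.02 and 11.1 FPKM in FMC 1 to FMC 4, and its high library, FMC 3, was not that of Insig1.

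Fdps (ENSMUSG00000059743, chromosome 3 from 88897514 to 88905881) encodes farnesyl pyrophosphate synthase, the last enzyme before the sterol and non-sterol branches part. It measured 9.03 FPKM in FM 1, 11.1 FPKM in FM 2 and, from FMC 1 to FMC 4, 12.04, 2.78, 1.17 and 9.28 FPKM. Both male FMC libraries were low, and both female FMC libraries lay at the FM levels. The log2 difference was -0.93 ± 0.88 (SE, limma adjusted p = 0.993). The fit with libraries of adjacent title dates as a block gave -1.94, which rests on FMC 2 against FM 1 and FMC 3 against FM 2, and without FMC 3 the difference was -0.46.

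Fdft1 (ENSMUSG00000021273, chromosome 14 from 63763990 to 63796630) encodes squalene synthase, the first enzyme committed to sterols. It measured 8.98 FPKM in FM 1, 4.27 FPKM in FM 2 and, from FMC 1 to FMC 4, 17.2, 3.62, 7.98 and 6.84 FPKM. As for Insig1, FMC 1 was the highest and FMC 2 the lowest library, and the groups overlapped. The log2 difference was 0.28 ± 0.75 (SE, limma adjusted p = 0.999), the only positive one of the 6, and it was -0.08 without FMC 1, -0.18 without FM 2 and 0.74 without FM 1. In the table the span of Fdft1 overlaps by 769 bases that of Ctsb, a lysosomal protease gene, and no source used here states whether reads were assigned by strand. Ctsb was far higher, with 138 FPKM in FM 1, 383 in FM 2 and 274, 219.9, 241 and 378 FPKM from FMC 1 to FMC 4. The order of the libraries in Ctsb was not that of Fdft1, and how many shared reads entered the value of Fdft1 was not tested.

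Sqle (ENSMUSG00000022351, chromosome 15 from 59146632 to 59162747) encodes squalene epoxidase, which catalyses the first oxygenation of the pathway and is a rate-limiting step after mevalonate. It measured 6.51 FPKM in FM 1, 16.9 FPKM in FM 2 and, from FMC 1 to FMC 4, 5.10, 4.27, 4.06 and 3.08 FPKM. The 4 FMC libraries lay close together, FM 1 just above them and FM 2 far above. FM averaged 11.7 ± 7.3 FPKM (SD, n = 2), while FMC averaged 4.13 ± 0.83 FPKM (SD, n = 4). The log2 difference was -1.19 ± 0.70 (SE, limma adjusted p = 0.993). The exact two-sided permutation test gave p = 0.0667, the smallest that 15 splits allow. Without FM 2 the difference was -0.56, and without FM 1 it was -1.81. Sqle also kept all FMC libraries below both FM libraries with median ratio scaling, with quantile normalization and after small and unnamed RNAs were left out.

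Cyp51 (ENSMUSG00000001467, chromosome 5 from 4081145 to 4104746) encodes lanosterol 14-alpha-demethylase, the first step after ring closure. It measured 11.7 FPKM in FM 1, 5.96 FPKM in FM 2 and, from FMC 1 to FMC 4, 1.34, 4.84, 3.22 and 11.1 FPKM. FMC 4 stood at the level of FM 1, and the other FMC libraries lay below both FM libraries. The log2 difference was -0.87 ± 0.84 (SE, limma adjusted p = 0.994), -0.44 without FM 1, -0.49 without FMC 1 and -1.28 without FMC 4. The exact two-sided permutation p over the same 15 splits was 0.333 for Cyp51, 0.4 for Fdps, 0.667 for Insig1 and 0.8 for Fdft1.

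**Figure D1:**
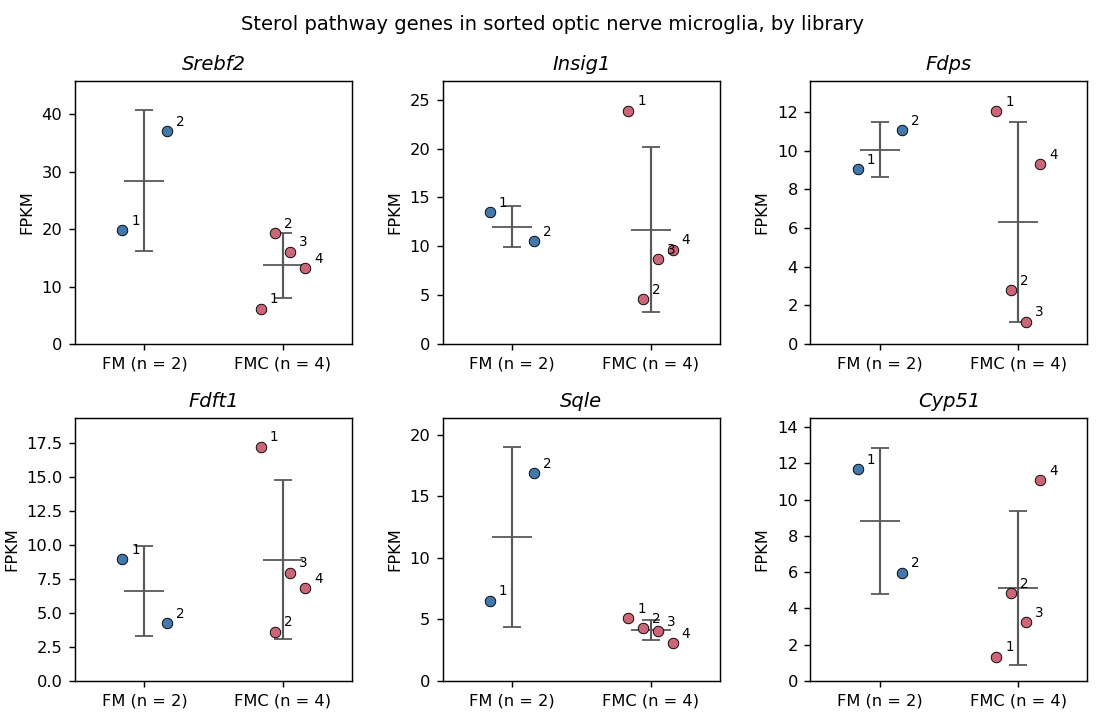
FPKM of the 6 genes in each library, in FM (2 libraries, blue) and FMC (4 libraries, red); the number beside a point is the replicate, the horizontal mark the mean and the bar ± SD. In Srebf2 and Sqle the 4 FMC points sit below both FM points, and in the other 4 genes the groups overlap.

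Libraries whose titles carry dates 1 day apart were set side by side, although what the dates stand for is not stated in the labels. FMC 2 was lower than FM 1 in 6 of the 6 genes, by log2 differences from -0.04 (Srebf2) to -1.41 (Fdps), beside 51.5% of all genes and a median of -0.05 over them. FMC 3 was lower than FM 2 in 5 of the 6, from -0.25 (Insig1) to -2.47 (Fdps), and higher in Fdft1 at 0.77, beside 60.1% of all genes lower and a median of -0.32. Srebf2 in the first pair and Insig1 in the second were thus no lower than the median gene. FMC 3 is male and FM 2 female, so the second comparison mixes sex with genotype.

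The libraries that were high or low differed between the genes. FMC 1 held the highest value of 3 of them (Insig1, Fdps and Fdft1) and the lowest of 2 (Srebf2 and Cyp51). The sum of the 5 genes other than Srebf2 was 49.7 FPKM in FM 1, 48.7 in FM 2 and 59.6, 20.1, 25.1 and 39.95 FPKM from FMC 1 to FMC 4, so that FMC 2 and FMC 3 were low and FMC 1 was the highest library. FMC 1 was also the library with the highest sum of 4 T cell markers, at 66.5 FPKM against 9.74 to 21.3 FPKM in the other 5, and with the highest oligodendrocyte sum (45.95 FPKM), and their part in the values of Insig1, Fdps and Fdft1 was not tested. The residual SD on the log2 scale ran from 0.49 (Sqle) to 1.06 (Fdps), beside a median of 0.94 for 4464 genes with means in the same range.

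Srebf2 was set against each of the other 5 genes over the 6 libraries, in 5 relations. Pearson's r was 0.66 for Sqle (Spearman's rho 0.66), 0.54 for Cyp51 (rho 0.54), -0.11 for Fdps (rho -0.20), -0.55 for Insig1 (rho -0.14) and -0.82 for Fdft1 (rho -0.49). The smallest exact permutation p for r was 0.0653, for Fdft1, and the p of Sqle, Insig1, Cyp51 and Fdps were 0.199, 0.222, 0.244 and 0.814. For rho the exact permutation p were 0.175 (Sqle), 0.297 (Cyp51), 0.714 (Fdps), 0.803 (Insig1) and 0.356 (Fdft1). After Benjamini-Hochberg adjustment over the 5 relations, the smallest exact permutation p was 0.306 for r and 0.593 for rho, so none passed. FM 2 and FMC 1 lie farthest from the median of Srebf2. Without them r was 0.85 for Sqle, -0.13 for Cyp51, -0.14 for Fdps, -0.14 for Insig1 and -0.20 for Fdft1, so the values for Fdft1, Insig1 and Cyp51 rested on those 2 libraries.

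**Figure D2:**
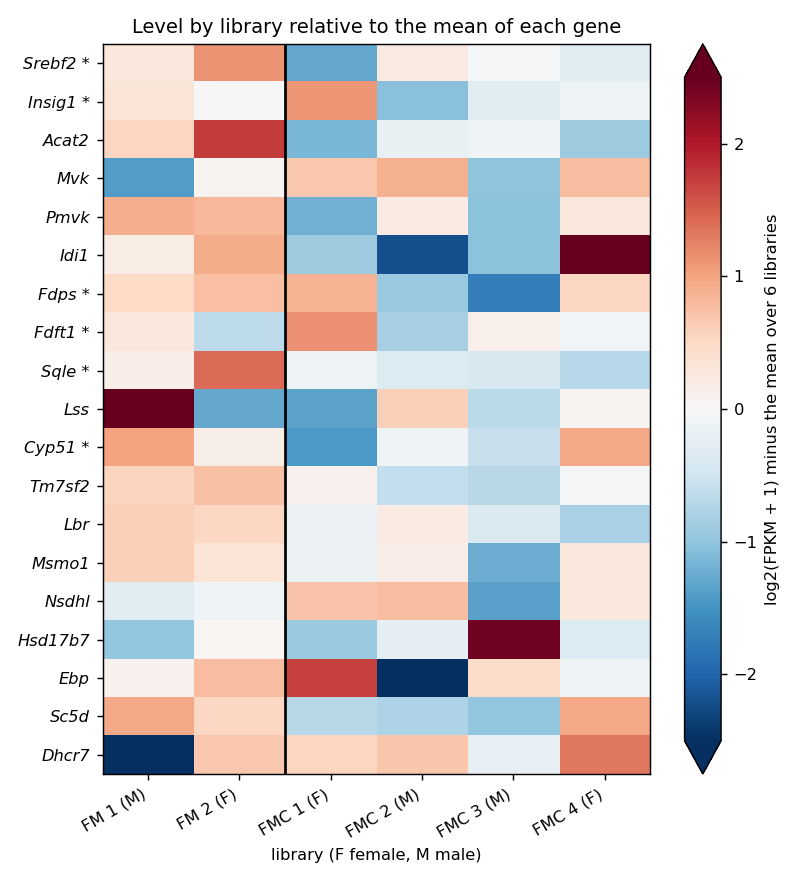
Level of Srebf2, Insig1 and 17 sterol enzymes in pathway order (rows; an asterisk marks the 6 genes described) in each library (columns, with the sex on the label), as log2(FPKM + 1) minus the mean of the gene over the 6 libraries; the scale ends at 2.5 in either direction. The columns FM 1 and FM 2, left of the line, are red in most rows, and no FMC column is blue throughout.

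The other enzymes of sterol synthesis were described as a list of 16, of which 15 have a row and were tested. None passed by limma, and 1 of the 15 had an unadjusted p under 0.05, on the low side, as did 4.20% of all genes. Of the 15, 11 had a lower fitted level in FMC, with a median log2 difference of -0.84, beside 56.5% and -0.12 over all genes tested. In 6 of the 15, among them Acat2, Pmvk, Tm7sf2, Lbr and Msmo1, all FMC libraries lay below both FM libraries, and in 0 above both. With Srebf2 and Sqle this makes 8 of 21 sterol genes, or 38.1%, beside 8.22% of all genes. The genes of a pathway are not independent of each other, and every gene shares the same 2 FM libraries. The genes and lists were also chosen with earlier results of these data known, so the 2 shares are no independent test. The count was 5 of 21 with median ratio scaling (7.35% of all genes), 6 of 21 with quantile normalization (6.69%), and 6 of 21 after small and unnamed RNAs were left out (9.18%). Sqle, Acat2, Pmvk and Tm7sf2 were in all 4 of these counts.

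Acat2, which makes acetoacetyl-CoA in the cytosol for the synthase encoded by Hmgcs1, was at 3.69 and 9.87 FPKM in FM beside 0.471, 1.84, 2.05 and 0.758 FPKM in FMC (log2 difference -1.71 ± 0.77 SE). The 2 kinases after mevalonate had fitted differences of opposite sign. Pmvk, phosphomevalonate kinase, was at 11.0 and 10.5 FPKM in FM beside 1.79, 6.43, 2.16 and 6.79 FPKM in FMC. Mvk, mevalonate kinase, named after its values were seen, was at 0.0548 and 1.92 FPKM in FM beside 3.46, 4.13, 0.389 and 3.75 FPKM in FMC.

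The 2 sterol C14 reductases, encoded by Tm7sf2 and Lbr, act right after Cyp51. Tm7sf2 was at 12.02 and 13.7 FPKM in FM beside 8.54, 4.80, 4.50 and 7.55 FPKM in FMC 1 to FMC 4, and its span overlaps that of 1110014N23Rik by 532 bases. Lbr, which is also a receptor for lamin B of the nuclear envelope, was at 5.31 and 4.91 FPKM in FM beside 2.74, 3.77, 2.24 and 1.37 FPKM in FMC. Msmo1, the next enzyme, which demethylates C4, was at 10.6 and 8.72 FPKM in FM beside 5.93, 7.70, 2.27 and 8.399 FPKM in FMC, where FMC 4 came close to FM 2. With Cyp51, the 4 genes of these steps had lower fitted levels in FMC, with log2 differences from -0.70 (Msmo1) to -0.95 (Tm7sf2), and none passed the test.

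Dhcr7, which completes cholesterol and was named after its values were seen, was at 0.955 and 24.1 FPKM in FM beside 21.7, 24.6, 12.7 and 38.2 FPKM in FMC, with the highest log2 difference of the 21 at 1.75 ± 0.96 (SE, limma adjusted p = 0.993). Its difference turns on the low value in FM 1.

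**Figure D3:**
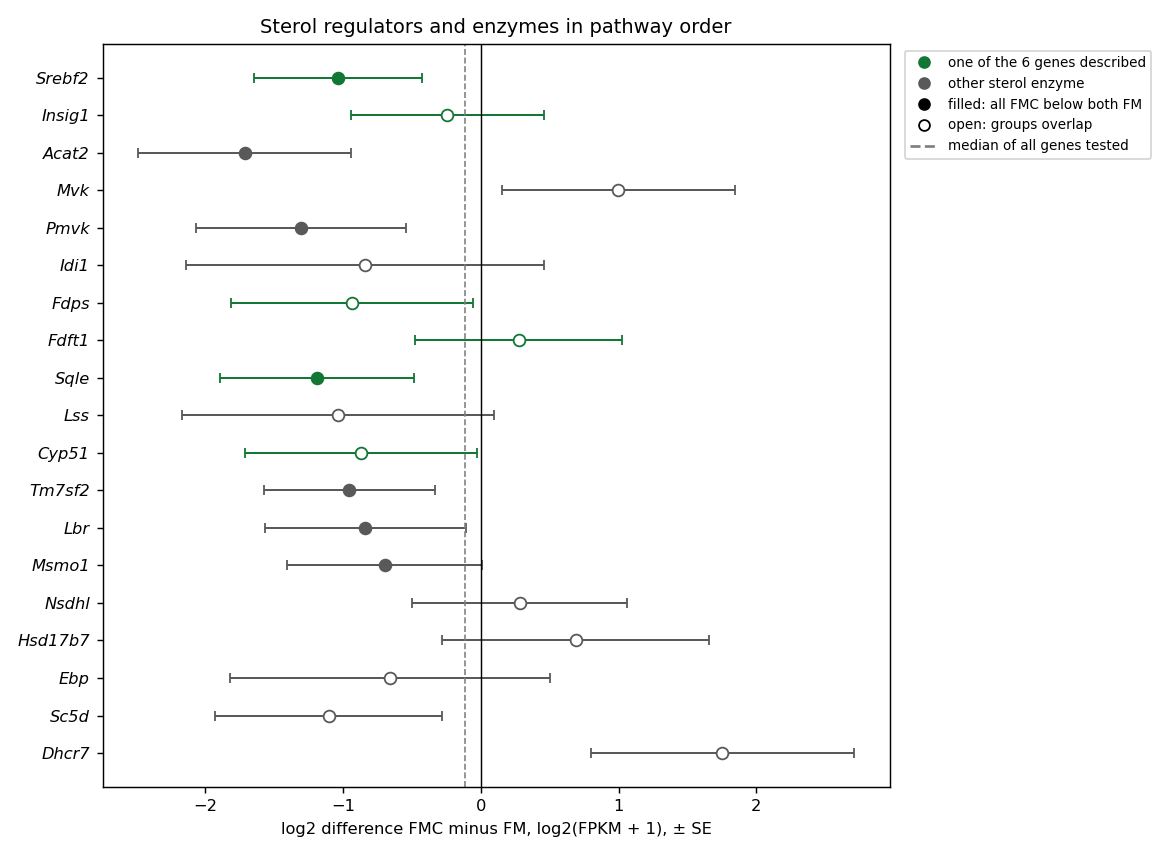
Log2 difference of FMC minus FM with its SE (limma, 2 FM and 4 FMC libraries) for Srebf2, Insig1 and 17 sterol enzymes, from the start of the pathway (top) to its end; green marks the 6 genes described and filled points the genes with all FMC libraries below both FM libraries. Of the 19 points drawn 14 lie left of 0, from -0.24 (Insig1) to -1.71 (Acat2).

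The genes that process SREBP-2 were compared next. Of 9 genes of SREBP processing and sterol sensing, 0 passed, 7 had a lower fitted level and the median log2 difference was -0.25. Over all genes tested, 56.5% were lower and the median was -0.12. Scap, the sterol sensor that escorts SREBP-2, was at 49.7 and 25.5 FPKM in FM beside 42.4, 99.3, 11.1 and 50.5 FPKM in FMC 1 to FMC 4, with overlapping groups. Mbtps2, the protease that makes the second cut, was the 1 gene of the 9 with all FMC libraries below both FM libraries, a share near the 8.22% of all genes, at 11.6 and 14.5 FPKM in FM beside 10.0, 3.78, 7.14 and 4.10 FPKM in FMC (log2 difference -1.03 ± 0.66 SE, limma adjusted p = 0.993). Its span overlaps that of Gm6568 by 697 bases, and Gm6568 was highest in FM 2 (10.6 FPKM) and at most 1.51 FPKM elsewhere. Srebf1, which encodes the factor that mainly drives fatty acid synthesis, was at 26.3 and 61.1 FPKM in FM beside 28.3, 25.8, 37.2 and 56.0 FPKM in FMC. Srebf1 exceeded Srebf2 in all 6 libraries, and its log2 difference was -0.19 ± 0.54 (SE).

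Uptake and the neighbouring branches were described in the same way. All 7 genes of sterol uptake and intracellular transport had a lower fitted level in FMC by small amounts (median -0.11, 0 passed). That median was close to the -0.12 of all genes tested, of which 56.5% were lower. The 8 genes of other branches from the mevalonate pathway had a median of 0.26 and the 11 tested fatty acid synthesis genes a median of -0.02, with 0 passed in both. Pggt1b, a subunit of the enzyme that attaches geranylgeranyl groups to proteins, had all FMC libraries below both FM libraries by a narrow margin, 1 gene of the 8 where 8.22% of all genes did, at 7.72 and 7.67 FPKM in FM beside 3.18, 7.65, 6.90 and 3.37 FPKM in FMC. Acly, which makes cytosolic acetyl-CoA for both sterols and fatty acids, was the 1 gene of these lists with all FMC libraries above both FM libraries, no more than the 4.34% of all genes would give. Acly was at 27.5 and 27.9 FPKM in FM beside 39.2, 87.9, 38.3 and 52.4 FPKM in FMC (log2 difference 0.87 ± 0.50 SE, limma adjusted p = 0.993). The 10 tested genes of oxysterol signalling, efflux and esterification had a median of 0.09, with 9 higher and 1, Lpcat3, lower, and 0 passed. Of all 18208 genes tested, 7923 were higher. The median of these 10 genes was -0.29 without FM 1 and 0.71 without FM 2. Lpcat3, a phospholipid acyltransferase regulated by LXR, was at 73.9 and 138 FPKM in FM beside 56.6, 46.8, 43.1 and 129 FPKM in FMC, with FMC 4 near FM 2.

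**Figure D4:**
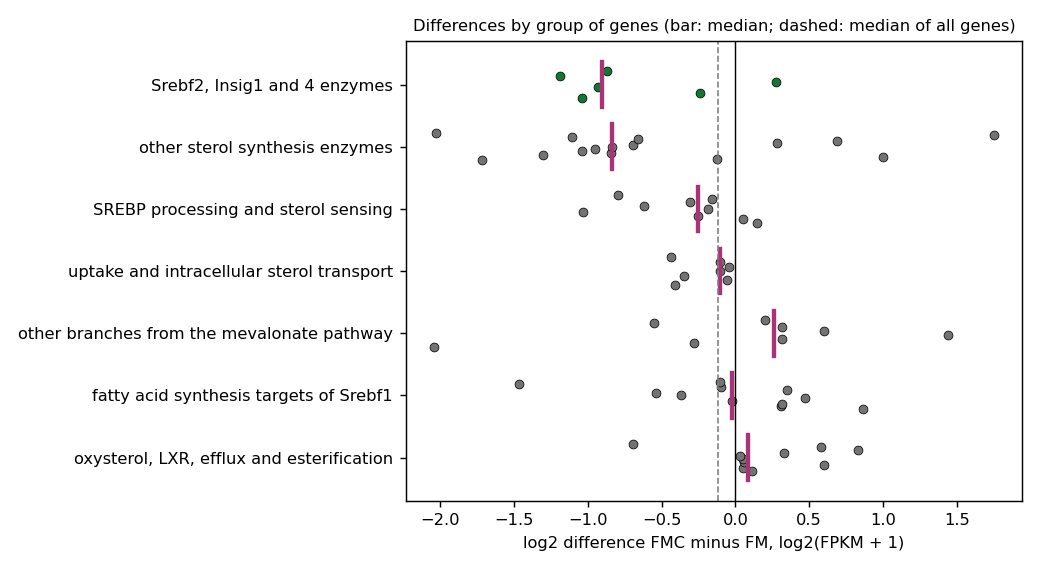
Log2 difference of FMC minus FM for each gene tested (points) in the 6 genes described (green) and in 6 lists of related genes (grey), with the median of each list as a bar and that of all 18208 genes as a dashed line. The medians of the 2 sterol synthesis rows, at -0.90 and -0.84, lie farther below the dashed line at -0.12 than those of the other 5 lists, which run from -0.25 to 0.26.

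Sex was compared with genotype kept in the fit. No gene passed (limma, 0 of 18208, with 7.44% at an unadjusted p under 0.05, 5.55% higher and 1.88% lower in females), and of the 6 genes 0 had an unadjusted p under 0.05. Fdps had the smallest p of the 6: its 3 female libraries (11.1, 12.04 and 9.28 FPKM) lay above its 3 male libraries (9.03, 2.78 and 1.17 FPKM), as in 9.03% of all genes (3.27% had them all below), with a log2 difference of female minus male of 1.43 ± 0.71 (SE, limma adjusted p = 0.712). FM 1 and FMC 4 nearly touched. The other 5 genes ran from -0.30 (Srebf2) to 0.65 (Insig1), with overlapping sexes. The difference of the genotype effect between the sexes had an adjusted p of 0.999 in limma for each of the 6.

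As a last description, the 6 genes were averaged after each was standardized over the 6 libraries, and all 9880 genes with a mean of at least 5 FPKM were ranked by Pearson's r with this profile. Small RNAs and predicted or unnamed genes were left out when the top genes were named. Among the rest, the 5 genes outside the 6 with the highest r, over 6 libraries, were Pnp (0.993), Tbrg1 (0.991), Ddt (0.990), Tm7sf2 (0.988) and Vps26a (0.988). Tm7sf2 is itself a sterol enzyme, and Pnp has a near copy, Pnp2, with which it may share reads. High values were not confined to these 5, as 93 of the 9880 genes reached 0.9, and r over 6 points is imprecise. The median r was 0.52 for the 10 other sterol enzymes in this ranking, from -0.37 (Dhcr7) to 0.99 (Tm7sf2), beside 0.13 for all 9880 genes and -0.19 for the 6 fatty acid synthesis genes. The r of the 6 genes with their own profile ran from 0.22 (Fdft1) and 0.25 (Srebf2) to 0.84 (Fdps), so the profile is mainly that of Fdps, Sqle and Insig1.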

How the data were processed

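Microglial RNA of 6 libraries was amplified to cDNA by the Ovation method and sequenced as paired ends, per the labels' protocols. The submitters' processing notes list Cufflinks 2.0.2, TopHat2 2.0.4, CASAVA 1.8.2 and Bowtie2 2.0.0, and mm9 as the build, with no roles. The authors deposited FPKM per Ensembl gene and library, per the file headers, and column names gave the library of all 6 value columns. Of 37447 rows, 426 with a missing value were not tested. Starts in the table count from 0 and were raised by 1 (with this, 3276 of 3379 short RNA genes had the length of GENCODE M21 by gene identifier). FPKM holds no counts, so tests for counts were not used.

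The 18208 genes that reached 1 FPKM in 2 or more libraries were tested as log2(FPKM + 1), a scale that understates changes of low genes, with limma 3.58.1 in R 4.3.3 (intensity trend, two-sided, Benjamini-Hochberg, threshold 0.05). Single genes also had an exact permutation test over 15 splits. Where FM 1 or FM 2 is omitted, the other is taken to vary as FMC does. P-values measure the spread between these libraries. The fit was tested on simulated data. Genes are named by a rule: the 6 with a row, Scap, Insig2 and Srebf1, and from each list those past the threshold or with groups that do not overlap, or else the smallest p. Some genes that the rule names are not reported here; counts and medians of the lists include them. Sc4mol in the table is Msmo1. Mvd and Hmgcs1 were not analysed here. March6 was matched by gene identifier. The members and lists were chosen with earlier results of these data known.

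The alternatives changed the scaling (quantile normalization, median ratios, small and unnamed RNAs omitted), the pseudocount (0.1), the filter (none, or a mean of 5 FPKM or more), the fit (no trend, array weights, sex covariate, title date block, replicate block) or the libraries (each omitted in turn). Counts of groups that do not overlap under other scalings and without each library, and the letters TCACCNCA, were added after the data were seen.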

Additional observations from a re-analysis of the deposited data

Results flagged for a closer look

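For 28 genes named in the report, Dixon's test set the highest or lowest FPKM of the 4 FMC libraries against the others. It marks about 5% of such groups by chance if values are normally distributed, which was not tested. FPKM are often skewed to high values, and the test was not run on the log2 scale of the fits. Of the 28 genes, 3 were marked, each for a high value. Idi1, isopentenyl diphosphate isomerase of the step before Fdps, named after its values were seen, stood at 61.5 FPKM in FMC 4 while FMC 1, FMC 2 and FMC 3 had 3.24, 0.709 and 2.83 FPKM, and FM 1 and FM 2 had 7.94 and 13.9 FPKM. It has a paralog in the table, Idi2, so shared reads are possible. Insig2 stood at 36.02 FPKM in FMC 3 and between 8.59 and 12.7 FPKM in the other FMC libraries. Lpcat3 stood at 129 FPKM in FMC 4 and between 43.1 and 56.6 FPKM in the other FMC libraries. Its span overlaps that of Emg1 by 38 bases, and Emg1 was also highest in FM 2 (88.0 FPKM) and FMC 4 (84.6 FPKM), as Lpcat3 was; the part of shared reads was not tested.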

How the results depend on the processing

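No member passed the threshold in any of the 17 alternatives, and Srebf2, Sqle, Fdps and Cyp51 stayed lower in FMC in all 17. Over them the log2 difference ran from -1.47 to -0.59 for Srebf2, -1.81 to -0.56 for Sqle, -1.94 to -0.46 for Fdps and -1.35 to -0.44 for Cyp51. Changing the filter, leaving out the intensity trend or adding sex, which is balanced between the genotypes, could not alter the log2 difference of a gene. The sign in those fits was thus fixed in advance. Insig1 changed sign without FMC 2 (0.0816; -0.64 to 0.0816 over the fits without 1 library). Fdft1 changed sign with the title date block (-0.17) and without FM 2 or FMC 1 (-0.18 to 0.74 over the fits without 1 library). The relation of Srebf2 with Cyp51 turned to an r of -0.13 without FM 2 and FMC 1.

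Over all genes, the 0 higher and 5 lower calls became 1 and 0 with a pseudocount of 0.1, 2 and 1 with the title date block, and 0 and 33 without a filter. Lower calls were 10 without an intensity trend and 0 with a mean of at least 5 FPKM, without small and unnamed RNAs, with sex as a covariate and with the replicate block. Without each library in turn 0 to 4 genes were higher and 0 to 4 lower, and by sex 0 to 1 and 0 to 4. Some replicate numbers occur in both groups, and deviations of same-numbered libraries correlated at 0.031 and -0.057. With 2 FM libraries their deviations mirror each other, so these values cannot show a pairing independently, and why the replicate block gave 0 calls was not tested.

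The count of 8 sterol genes below both FM libraries became 5 with median ratio scaling. Without 1 library it was 8 to 11 of 21, with 10.7% to 26.7% of all genes. Without FM 1, where FM 2 alone was left to compare with, it was 8 (38.1%) beside 26.7% of all genes. Without FM 2 it was 10 (47.6%) beside 19.4%. Without FMC 3 it was 8 (38.1%) beside 10.7%, and without FMC 4 it was 11 (52.4%) beside 13.9%. List medians without 1 library ran from -0.89 to -0.72 for other sterol enzymes, -0.70 to -0.16 for SREBP processing, -0.40 to 0.12 for uptake and transport, -0.47 to 0.41 for other mevalonate branches, -0.30 to 0.44 for fatty acid synthesis and -0.29 to 0.71 for oxysterol and efflux genes. The number of FM libraries, 2, limits what the fit can call.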
